A study of Mus musculus with 2 samples.

Results

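The nuclear effectors of the Hippo pathway, their DNA-binding partners of the TEAD family, the vestigial-like cofactors and the kinase gene Lats2 were examined in hearts that overexpress miR-143 and miR-145. The set holds 10 genes, namely Yap1, Wwtr1, Tead1, Tead2, Tead3, Tead4, Vgll2, Vgll3, Vgll4 and Lats2, and its members were every probe whose platform symbol, old or current, belongs to one of them. There were 10 such probes for 9 of the 10 genes, out of 16390 named genes with a probe on the array. No probe was named Vgll3. Of the 9 genes, 8 were above background in every channel, out of 17485 genes and unnamed probes with a ratio on both arrays. Tead2 was the exception. The set was chosen by gene family with the L9 and L19 ratios over NTG already known, and Vgll2 is among the genes with the highest of them, so the members' ratios are given as a description without a test.

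Two-colour cDNA microarrays compared transgenic (TG) heart RNA of the αMHC/miR-143/145TG lines L9 and L19, labeled with Cy3, with heart RNA of non-transgenic (NTG) mice, labeled with Cy5, on 1 array for each line. The TG mice carry a human genomic fragment with both primary miRNA genes behind the α-myosin heavy chain (αMHC) promoter, which drives a transgene in cardiomyocytes. The NTG mice carry no transgene. All were 3-month old males of a B6D2F1-derived stock backcrossed to C57BL/6J. L9 and L19 are each a single transgenic line with 1 RNA, and the sources used here do not state how many mice stand behind each RNA. Both arrays name the same NTG RNA, which was therefore taken as 1 control sample. The dyes were not swapped, so dye and genotype cannot be told apart. Because whole hearts were used, fewer cells of a type and less RNA per cell cannot be told apart either.

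The Hippo pathway is a kinase cascade in which the kinases encoded by Stk3 and Stk4, with the scaffold protein encoded by Sav1, activate LATS1 and LATS2, which phosphorylate the coactivators YAP (Yap1) and TAZ (Wwtr1) and keep them out of the nucleus. Unphosphorylated YAP and TAZ bind the TEAD transcription factors, which recognize the M-CAT element with the core letters CATTCC. That element was first described in muscle gene promoters. Vestigial-like proteins bind the same TEAD surface. In the heart the pathway limits cardiomyocyte proliferation and organ size, and YAP activity is regulated mostly by phosphorylation, which a measurement of mRNA does not see.

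On each array a signal is the spot intensity above the mean of the blank spots, and TG signals were scaled so that the median ratio of TG to NTG was 1. The blank-corrected detection limit was 3.19 (L9) and 3.24 (L19) for TG after this scaling, and 1.37 and 1.39 for NTG on the same arrays. Hk2, a known target of miR-143, was at 37.5% of the NTG level in L9 and 37.9% in L19, and the transgene itself has no probe. The NTG signal, read on both arrays from the same RNA, differed between them with an SD of 0.32 on the log2 scale over 20347 probes. This SD was larger for dim probes, and each member is given with the SD over the 1000 probes nearest to it in NTG signal. It is the spread of the NTG channel between arrays, not the error of a ratio of TG over NTG. With 1 RNA for each line and 1 control RNA, the number of arrays limits the precision, and the spread between NTG mice was not measured. The NTG signals of a probe are repeated readings of 1 RNA, so their overlap with TG signals across arrays is only a description. The share of all genes without such overlap was not counted.

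The promoter windows of the members are shown because the TEAD core can be read in them directly. They run from 250 bases before to 50 bases after an annotated start site and come from RefSeq on GRCm38.p6. A window was found for 8 of the 10 genes, all except Tead1 and Tead4. CATTCC, or GGAATG when the core lies on the opposite strand, stood in a window of 6 of these 8, namely Yap1, Wwtr1, Tead3, Vgll3, Vgll4 and Lats2, and in none of Tead2 or Vgll2. Among all 27025 genes with a window, 16.6% had the letters in at least 1 window, and among all 32851 windows 14.7% did. The whole windows of Yap1 and Vgll2, the members with the highest ratios, and the stretches around the letters in the others, with the target gene Ankrd1 at the end, are given 5′ to 3′ with CATTCC or GGAATG in capitals.
Yap1, chr9:8004547-8004846, minus strand: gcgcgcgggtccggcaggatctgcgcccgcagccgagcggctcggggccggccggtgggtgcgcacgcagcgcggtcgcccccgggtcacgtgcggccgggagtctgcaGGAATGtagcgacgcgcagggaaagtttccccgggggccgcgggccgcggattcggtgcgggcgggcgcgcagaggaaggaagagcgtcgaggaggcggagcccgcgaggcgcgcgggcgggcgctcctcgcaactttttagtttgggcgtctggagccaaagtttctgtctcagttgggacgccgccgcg
Vgll2, chr10:52022252-52022551, plus strand: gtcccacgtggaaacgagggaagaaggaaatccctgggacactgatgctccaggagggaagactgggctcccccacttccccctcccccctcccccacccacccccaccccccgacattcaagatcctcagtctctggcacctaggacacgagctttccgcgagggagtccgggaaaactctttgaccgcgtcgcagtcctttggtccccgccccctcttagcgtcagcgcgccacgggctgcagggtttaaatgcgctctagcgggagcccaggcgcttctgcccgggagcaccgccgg
Wwtr1, chr3:57576026-57576061, minus strand: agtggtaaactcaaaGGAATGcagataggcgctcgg
Tead3, chr17:28350967-28351002, minus strand: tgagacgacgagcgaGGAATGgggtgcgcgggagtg
Tead3, chr17:28350578-28350738, minus strand: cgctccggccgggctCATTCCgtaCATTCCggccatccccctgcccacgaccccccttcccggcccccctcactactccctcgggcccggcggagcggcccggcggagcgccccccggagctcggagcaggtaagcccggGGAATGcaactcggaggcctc
Vgll3, chr16:65815111-65815146, plus strand: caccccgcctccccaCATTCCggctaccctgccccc
Vgll4, chr6:114969265-114969300, minus strand: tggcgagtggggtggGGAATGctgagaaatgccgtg
Lats2, chr14:57746099-57746134, minus strand: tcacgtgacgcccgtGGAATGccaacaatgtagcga
Ankrd1, chr19:36119947-36120069, minus strand: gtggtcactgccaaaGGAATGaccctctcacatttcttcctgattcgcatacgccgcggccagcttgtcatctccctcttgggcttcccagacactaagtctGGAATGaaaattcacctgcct
The letters began 141 bases before the start site in Yap1, 136 bases before that of 1 window of Wwtr1 (170 before that of an overlapping window), 63 before it in Vgll3 and 82 before it in Vgll4. In Lats2 they began at position 5 after the start site. Tead3 had them 182 bases before 1 start site and, for another, 123 and 114 bases before it and at position 3 after it. Ankrd1, a target gene of YAP, had them 210 and 123 bases before its start site. The windows of genes on the lists used further on held the letters in 6 of 22 upstream Hippo genes, 5 of 13 target genes and 6 of 8 muscle genes known for M-CAT elements. A match of 6 letters is a description of the sequence and not a binding site.

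Of the 2 effectors, Yap1 was above NTG in both lines, while Wwtr1 had no settled side. Yap1 (probe M400004341), which encodes YAP, had signals of 38.6 in L9 and 38.6 in L19, against 26.4 and 22.9 in NTG on the same arrays. Both TG signals lay above both NTG signals. Yap1 was thus 1.46-fold NTG in L9 and 1.68-fold in L19, which gives a mean of 0.65 ± 0.14 on the log2 scale (n = 2 lines, with the SD after the ± sign here and for the other members), where the NTG signal of such probes repeated with an SD of 0.20. It passed 1.5-fold in L19 and missed it in L9. Its mean log2 ratio was 0.33 when the background was corrected by normexp with an offset and 0.30 when no background was subtracted, so its sign was the same but its size was smaller.

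Wwtr1 (probe M200005817) encodes TAZ, the other coactivator. Its signals were 163 in L9 and 164 in L19, against 141 and 166 in NTG. The NTG signals lay on both sides of the TG signals. The log2 ratio was 0.21 in L9 and -0.02 in L19, with a mean of 0.10 ± 0.16, within the SD of 0.17 with which the NTG signal of such probes repeated. This mean depended on the setting, since it was 0.41 after normexp, above that of Yap1, and -0.32 with no background subtracted. Wwtr1 itself was far from background, with TG at 102 (L9) and 101 (L19) SDs of the blank spots above the blank mean. Both settings were scaled anew to a median ratio of 1, so a gene's ratio there also moves with that median. Its part in the change was not tested.

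Among the vestigial-like cofactors, Vgll2 had by far the highest ratio of the set. VGLL2 is a TEAD cofactor of the skeletal muscle lineage, where it promotes muscle differentiation. Vgll2 (probe M300020380) had signals of 34.0 in L9 and 9.16 in L19, against 2.75 and 2.29 in NTG. The TG signals did not overlap the NTG signals, and the L9 signal stood apart from the L19 signal. In units of the SD of the blank spots, TG was 21.3 above the blank mean in L9 and 5.66 in L19, against 4.01 and 3.29 for NTG, where 2 is the detection limit. The ratio therefore rests on an NTG signal close to background. It was 12.4-fold in L9 and 4.0-fold in L19, a mean log2 ratio of 2.81 ± 1.15, where the NTG signal of such dim probes repeated with an SD of 0.63. The ratio depended on the background. After normexp with an offset it was 0.72 in L9 and 0.04 in L19 on the log2 scale, and Vgll2 no longer passed 1.5-fold in L19. With no background subtracted it was 1.21 in L9 and 0.65 in L19, still past 1.5-fold in both lines.

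Skeletal muscle RNA is given beside Vgll2 because the gene is known from that tissue. Of 17 markers of skeletal muscle fixed for this purpose, 16 had a probe and 8 were measured in all channels, with none past 1.5-fold in both lines in either direction and a median log2 ratio of -0.12 (0.13 with no background subtracted). Of the 8, Myh4, Tnnt3 and Mylpf were above NTG in both lines and Myh8, Tnni2 and Mybpc2 below in both. Among all genes 35.5% were above in both, 38.4% below and 8.24% past 1.5-fold in either direction. On the L9 array the NTG signals of the first 3 were 4.58, 4.29 and 9.70, and those of the last 3 were 526, 31.7 and 60.2. The summed signal of the list was 542 in L9 and 565 in L19, against 685 and 722 in NTG, most of it from Myh8, a developmental myosin gene, with 411 and 433 in TG, against 526 and 541 in NTG. Myod1, the master regulator of the lineage, had 22.8 in L9 and 23.9 in L19, against 21.6 and 25.9 in NTG. Pax7, the marker of satellite cells, and Atp2a1, the calcium pump of fast fibers, were above background in no channel. The markers thus went both ways, and the part of skeletal muscle RNA in the Vgll2 ratio was not tested.

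Vgll4 (probe M300007134) encodes a cofactor that competes with YAP for TEAD and acts as its antagonist. Its signals were 65.4 in L9 and 64.8 in L19, against 63.2 and 65.6 in NTG. All 4 lay within a narrow range, with TG above NTG on the L9 array and below it on the L19 array. The mean log2 ratio was 0.02 ± 0.05, smaller than the SD of 0.17 between readings of the NTG signal, but it was 0.20 after normexp and -0.22 with no background subtracted. Vgll3, a paralog, has no value here.

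**Figure D1:**
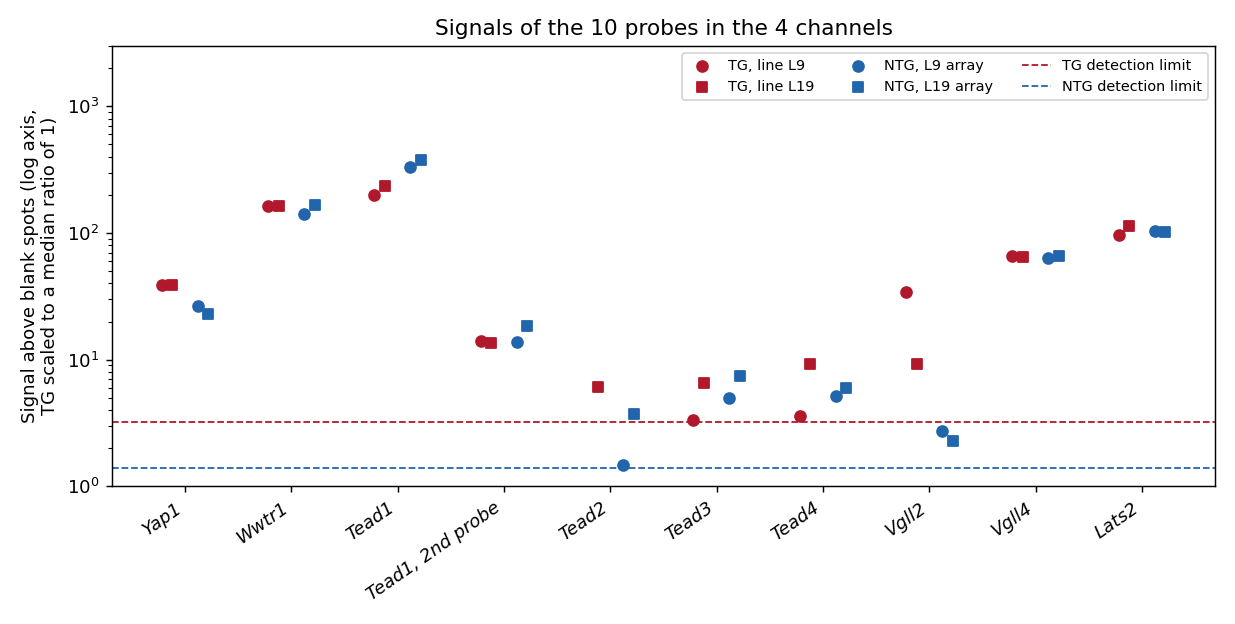
Signal above blank spots (log axis, TG scaled to a median ratio of 1) of the 10 probes, with TG in red (left) and NTG in blue (right), circles for the L9 array and squares for the L19 array, and dashed lines at the mean detection limit of each channel. Vgll2 is at 34.0 and 9.16 in TG, against 2.75 and 2.29 in NTG, and Tead1 at 199 and 237 in TG, against 335 and 375 in NTG. Signals of different probes are not comparable as amounts of RNA, and the TG signal of Tead2 in L9, below the blank mean, is not drawn.

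Of the TEAD genes, Tead1 was lower in both TG lines by 1 of its 2 probes. TEAD1 is a main TEAD of the adult heart and binds M-CAT elements of cardiac genes. The brighter probe (M400005234), which stands for the gene and carries an old symbol of Tead1 on the platform, 2610024B07Rik, had signals of 199 in L9 and 237 in L19, against 335 and 375 in NTG. Both TG signals lay below both NTG signals. They were 59.4% of NTG in L9 and 63.1% in L19, a mean log2 ratio of -0.71 ± 0.06, where the NTG signal of such probes repeated with an SD of 0.17. The dimmer probe (M300000289), listed as Tead1, had 14.1 in L9 and 13.6 in L19, against 13.8 and 18.5 in NTG. There TG lay above NTG on the L9 array and below it on the L19 array. The dimmer probe's log2 ratio was 0.03 for L9 and -0.45 for L19, with a mean of -0.21 ± 0.34. The probes thus gave the same sign of the mean but not the same size. With no background subtracted the signs differed too, at 0.07 for the dimmer probe and -1.10 for the brighter. Whether they read the same transcripts was not tested. With both probes averaged, Tead1 no longer passed 1/1.5 in both lines, and after normexp the brighter probe had a mean log2 ratio of -0.23.

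The other TEAD genes were dim. Tead3 (probe M200002403), a TEAD known from placenta and also found in muscle, had signals of 3.35 in L9 and 6.59 in L19, against 4.96 and 7.37 in NTG. The L9 signal was just above the TG detection limit. On each array the TG signal lay below the NTG signal, while across arrays the ranges overlapped. The log2 ratio was -0.56 in L9 and -0.16 in L19, with a mean of -0.36 ± 0.29, within the SD of 0.40 between readings of the NTG signal, and its sign turned to 0.30 with no background subtracted. Tead4 (probe M200003343), a TEAD of the early embryo and of muscle precursors, had 3.61 in L9 and 9.18 in L19, against 5.15 and 6.0 in NTG. The L9 signal lay below both NTG signals and the L19 signal above both. Its log2 ratio was -0.51 in L9 and 0.61 in L19, a mean of 0.05 ± 0.80. Tead2 (probe M200001157), a TEAD of the early embryo, had 6.05 in L19 and was not above background in L9, against 3.73 in NTG on the L19 array and 1.47 on the L9 array. Its log2 ratio of 0.70 in L19 therefore stands alone, and no ratio can be given for L9. For probes as dim as Tead2 the NTG signal repeated with an SD of 0.63.

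Lats2 (probe M400000530), the kinase that phosphorylates YAP and TAZ and is itself a target gene of YAP, had signals of 97.0 in L9 and 113 in L19, against 104 and 102 in NTG. The L9 signal lay below both NTG signals and the L19 signal above both. The log2 ratio was -0.11 in L9 and 0.15 in L19, a mean of 0.02 ± 0.18, smaller than the SD of 0.19 between readings of the NTG signal, but the mean was 0.29 after normexp and -0.31 with no background subtracted.

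In NTG hearts, where the ratios play no part, the brighter Tead1 probe was at the 92.2 percentile of the signals of all gene probes, detected or not (mean of both arrays). Wwtr1 was at 84.9, Lats2 at 80.3, Vgll4 at 73.0 and Yap1 at 56.2. Tead3 was at 30.4, Tead4 at 29.0, Vgll2 at 16.7 and Tead2 at 16.3. These are ranks of spot signal, and since probes differ in how brightly they bind, they do not order the genes by amount. They do show which ratios rest on bright spots, those of Tead1, Wwtr1, Lats2 and Vgll4, and which on spots near background. Yap1 lay between them and, among probes with a ratio on both arrays, below the upper 50% of signal.

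Counted over the set, 1 of the 8 measured genes, Vgll2, was over 1.5-fold NTG in both lines, where 5.2% of all 17485 genes and unnamed probes were, and 1, Tead1, was under 1/1.5 in both lines, where 3.03% were. Above NTG in both lines were 2 members, Yap1 and Vgll2, below NTG in both were 2, Tead1 and Tead3, and 4 lay on opposite sides. Among all genes 35.5% were above NTG in both lines, 38.4% below and 26.1% on opposite sides. The members' median log2 ratio was 0.04 (0.25 after normexp), against -0.01 over all genes. For all genes together limma called 0 higher and 0 lower at an adjusted p under 0.05. Unadjusted, 2745 higher and 2521 lower genes had a p under that value. A second fit, in which limma took a trend of the spread with signal and robust estimation, called 1794 higher (10.3%) and 1617 lower (9.25%).

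**Figure D2:**
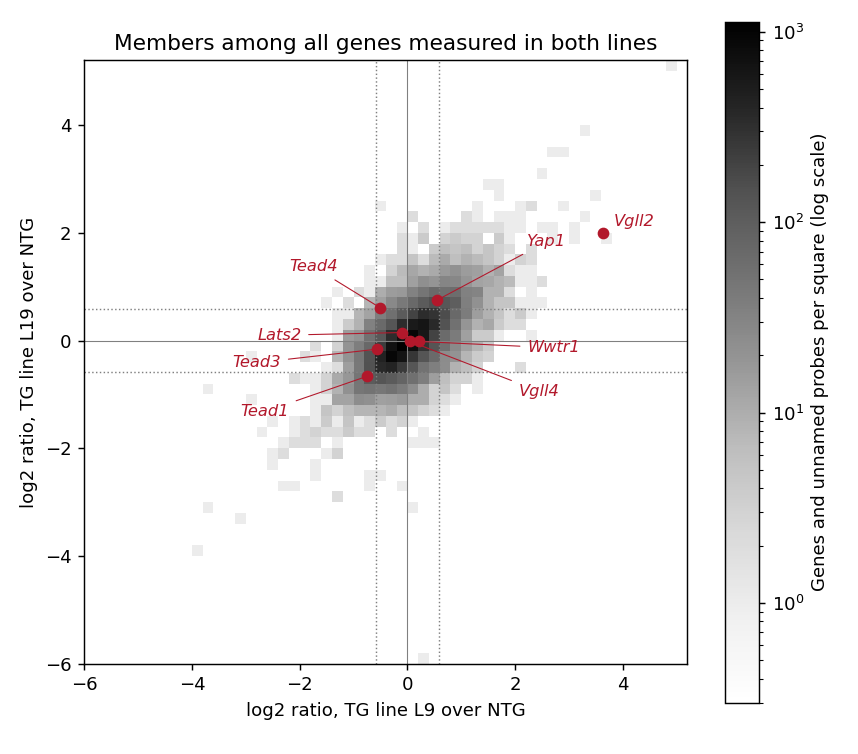
The log2 ratio of TG over NTG in line L9 (horizontal) and in line L19 (vertical), with the members in red and all 17485 genes and unnamed probes as grey squares shaded by their number on a log scale. Dotted lines mark 1.5-fold and 1/1.5. Vgll2, at 3.63 and 2.0, lies far from the bulk, Tead1, at -0.75 and -0.66, lies past the lower line in both directions, and Tead4, at -0.51 and 0.61, lies on opposite sides. Both axes share the NTG RNA.

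The lines differed least for Vgll4, Tead1, Yap1, Wwtr1 and Lats2 and most for Vgll2 and Tead4. The log2 ratio of L9 minus that of L19 was 0.07 for Vgll4, -0.09 for Tead1, -0.20 for Yap1, 0.23 for Wwtr1 and -0.25 for Lats2. It was -0.40 for Tead3, -1.13 for Tead4 and 1.63 for Vgll2, where this difference had an SD of 0.42 over all genes. The last 3 are the dimmest of the measured members. With 1 RNA for each line, the difference between L9 and L19 was not tested.

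By its pair of ratios, the named gene nearest to Vgll2 was Nppa, which encodes atrial natriuretic peptide, with log2 ratios of 3.32 in L9 and 2.31 in L19, at a distance of 0.44, and no named gene lay within 0.1 of Vgll2. Nearest to Yap1 was Batf, at a distance of 0.02 and with 63 named genes within 0.1, and nearest to Tead1 was Entpd4, at 0.01 and with 70 within 0.1. Nearest to Tead4 was Ttpal, with 8 genes within 0.1. For Tead3, Wwtr1, Vgll4 and Lats2, which lie where genes are dense, the nearest were Mgme1, Rcn1, Olfr855 and Rgs19, with between 104 and 609 genes within 0.1. The likeness is over 2 arrays that share a control RNA, so only Vgll2 and Tead4 had few genes close to them.

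**Figure D3:**
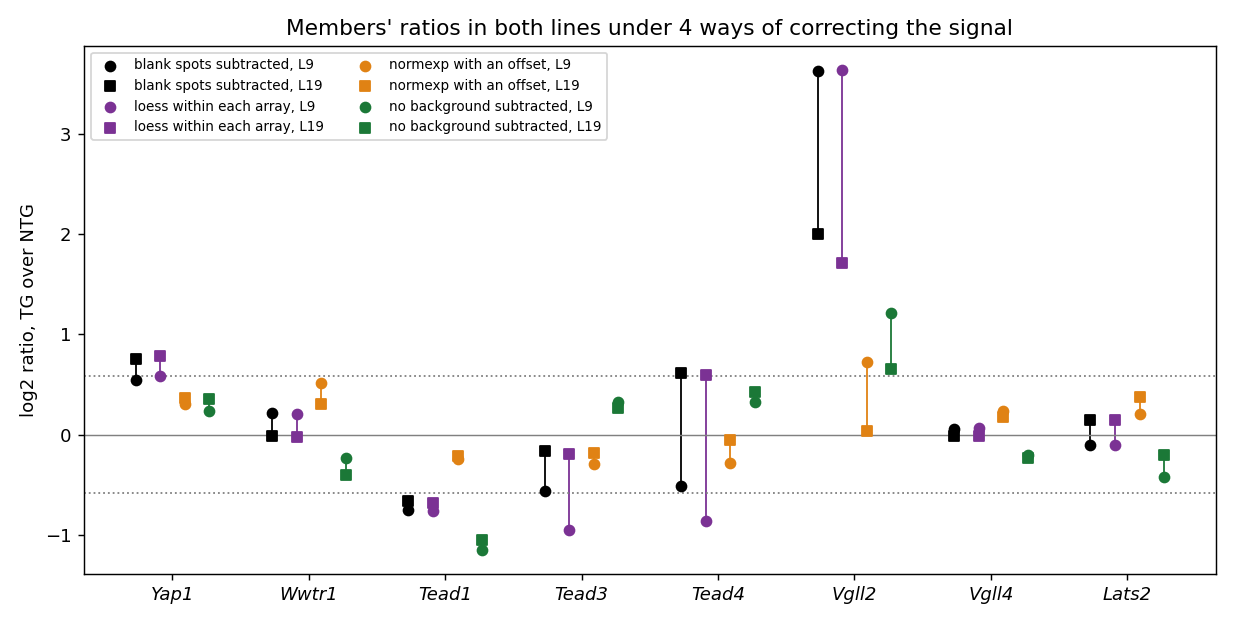
The log2 ratio of TG over NTG of each measured member in L9 (circles) and L19 (squares), with blank spots subtracted (black), loess within each array (purple), normexp with an offset (orange) and no background subtracted (green). Dotted lines mark 1.5-fold and 1/1.5. Vgll2 has means of 2.81 (black), 0.38 (orange) and 0.93 (green), Tead1 of -0.71, -0.23 and -1.10 and Yap1 of 0.65, 0.33 and 0.30, each on 1 side of 0.

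Upstream of the effectors, the genes of the kinase cassette lay on both sides of NTG. Of 28 kinase cassette genes and regulators, 27 had a probe and 23 were measured. Of these, 2 were over 1.5-fold in both lines (8.70%, against 5.2% of all genes) and 0 under 1/1.5 (against 3.03%), with a median log2 ratio of 0.12, against -0.01 over all genes. Sav1, the scaffold of the Stk3 and Stk4 kinases, had signals of 71.1 in L9 and 84.6 in L19, against 47.3 and 55.5 in NTG, with log2 ratios of 0.59 and 0.61. Mob1b, an activating subunit of the LATS kinases, had 17.0 in L9 and 18.8 in L19, against 9.93 and 12.2 in NTG, with log2 ratios of 0.77 and 0.63. Both had TG signals above both NTG signals. Neither call held after normexp, where the mean of Sav1 was 0.55 and that of Mob1b 0.10 and the 2 genes past 1.5-fold were Limd1 and Stk38 instead, or with no background subtracted. Stk4, an upstream kinase, had a mean log2 ratio of -0.09 ± 0.03, Lats1, the paralog of Lats2, 0.04 ± 0.10 and Nf2, which encodes the upstream regulator merlin, -0.39 ± 0.53, with -0.02 in L9 and -0.77 in L19. No probe was named Stk3. Over this list limma called 0 higher and 0 lower, and in the second fit 5 higher and 2 lower, where that fit called 10.3% of all genes higher and 9.25% lower. The list was chosen with earlier results of these data known, so these counts are a description and not a test of the list.

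Of the genes YAP and TAZ are known to induce through TEAD, several were higher in both lines while others lay near or below NTG. Of 20 such targets, 19 had a probe and 17 were measured, with 4 over 1.5-fold in both lines (23.5%, against 5.2% of all genes), 0 under 1/1.5 (against 3.03%) and a median log2 ratio of 0.27, against -0.01 over all genes. Ccn2, which encodes connective tissue growth factor, had signals of 405 in L9 and 1076 in L19, against 133 and 153 in NTG, with log2 ratios of 1.61 and 2.82. Ankrd1, a cardiac stress protein of the sarcomere and nucleus, had 28238 in L9 and 16205 in L19, against 6694 and 8016 in NTG, with log2 ratios of 2.08 and 1.02. For both genes every TG signal was above every NTG signal. Ccdc80, a matrix protein, was at 1.21 in L9 and 0.60 in L19, and Nt5e, an ectonucleotidase, at 0.60 and 1.58 on the same scale. Nt5e lost its call after normexp, with a mean of 0.29, Ccdc80 lost its call after loess and, with Nt5e and Ankrd1, when no background was subtracted, and Ccn2 kept it under each of these settings. Ccn1, a paralog of Ccn2 and a standard readout of YAP activity, was at 0.01 in L9 and 0.53 in L19, and Amotl2, another standard target, at -0.32 and 0.06. Thus, with blank spots subtracted, 2 of the 4 best known targets had ratios past 1.5-fold in both lines and 2 did not. Above NTG in both lines were 9 of the 17, and 6 were below in both, where 35.5% of all genes were above and 38.4% below. Over this list limma called 0 higher and 0 lower. The second fit called 5 higher and 2 lower, where it called 10.3% of all genes higher and 9.25% lower. The targets too were chosen with earlier results of these data known, so these counts do not test the list.

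Of the muscle genes known for M-CAT elements, 7 of 9 had a probe and were measured, and they went both ways. Nppb, which encodes brain natriuretic peptide, had signals of 4303 in L9 and 3084 in L19, against 1517 and 1514 in NTG, with log2 ratios of 1.5 and 1.03. Myh6, the α-myosin heavy chain gene, had 9633 in L9 and 13588 in L19, against 19151 and 21064 in NTG, with log2 ratios of -0.99 and -0.63. For Nppb every TG signal was above every NTG signal, and for Myh6 every TG signal was below. Nppb and Myh6 were the only genes of the list past 1.5-fold or 1/1.5 in both lines (5.2% and 3.03% of all genes). Nppb lost its call when no background was subtracted, and Myh6 lost its call after normexp and after loess. Acta1, skeletal α-actin, was at -0.20 in L9 and -2.64 in L19, and Myh7, the β-myosin heavy chain gene, at 0.02 and 0.43. The transgene is driven by a promoter of Myh6, the gene that was lower. The median of the list was -0.31, but 0.18 after normexp and -0.86 with no background subtracted. Both of these settings were scaled anew to a median ratio of 1 over all probes with a ratio, which moves bright genes too. The side of the list's median thus depended on the setting. Over this list limma called 0 higher and 0 lower. The second fit called 2 higher and 3 lower, where it called 10.3% of all genes higher and 9.25% lower. As for the other lists, these counts are a description and not a test of the list.

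**Figure D4:**
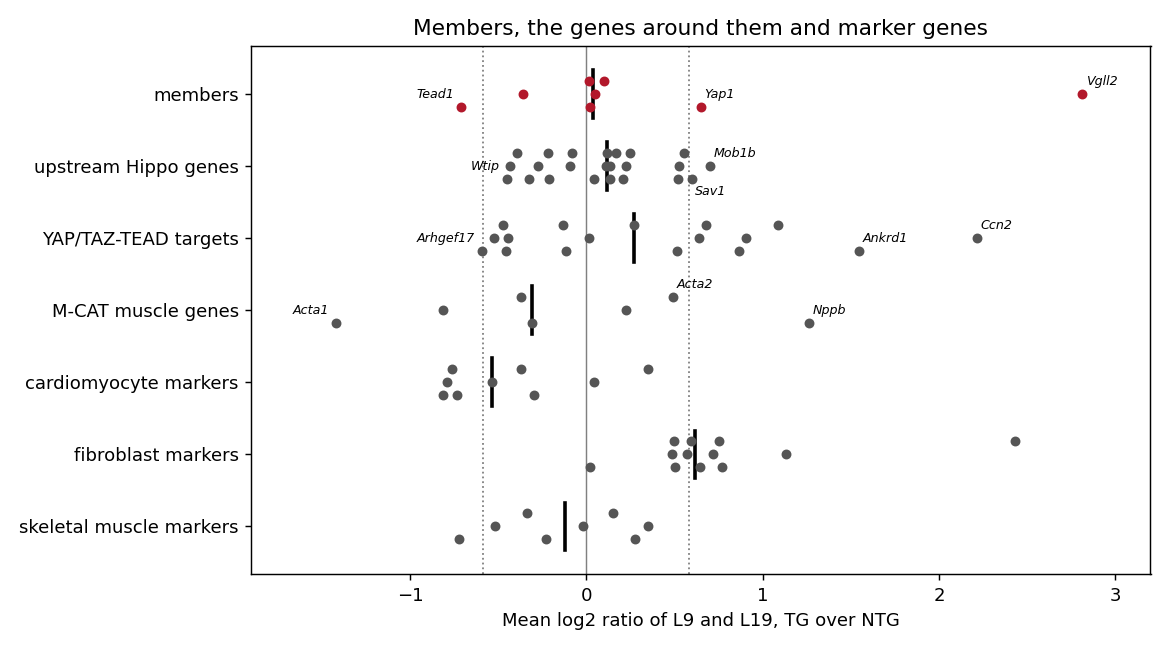
Mean log2 ratio of L9 and L19 (TG over NTG) of each measured gene, a point for each gene, in the members (red) and in the lists of genes around them (grey), with the median of each list as a black bar and dotted lines at 1.5-fold and 1/1.5. The vertical scatter within a list only separates the points. The median is 0.27 for the YAP/TAZ-TEAD targets, 0.12 for the upstream genes, 0.62 for the fibroblast markers and -0.53 for the cardiomyocyte markers.

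Markers of cell types differed between TG and NTG hearts alongside these genes. Their counts are to be read beside those of all genes. Of these, 35.5% were above NTG in both lines, 38.4% below, 5.2% over 1.5-fold in both and 3.03% under 1/1.5 in both. Of 12 fibroblast markers, all measured, 10 had a ratio above 1 in each line, with 4 past 1.5-fold in both and 0 past 1/1.5, with a median log2 ratio of 0.62 (0.96 after normexp, 0.13 with no background subtracted) and a summed signal of 12886 in L9 and 14275 in L19, against 7424 and 9226 in NTG. Postn, a matrix gene of activated fibroblasts, was at 3.06 in L9 and 1.80 in L19 on the log2 scale, the highest mean of the list. The collagen genes Col1a1 and Col3a1 were at 0.91 and 1.02 in L9 but at 0.08 and -0.02 in L19. Thy1 was at -0.22 in L9 and 0.26 in L19. Ccn2 and Ccdc80 are expressed by fibroblasts as well, and Yap1 and Vgll2 were higher in the same hearts. The part of fibroblast RNA in the members' and targets' ratios was not tested. Of 9 measured cardiomyocyte markers, 7 had a ratio below 1 in each line, with 3 past 1/1.5 in both, with a median of -0.53 (-0.04 after normexp, -1.07 with no background subtracted), and their summed signal was 93229 in L9 and 114820 in L19, against 150773 and 158716 in NTG. After normexp, and with no background subtracted, the ratios were scaled anew to a median ratio of 1, which moves bright genes too. Under these settings the mean of Myh6 went from -0.81 to -0.32 and -1.38, and that of Myl2 from -0.73 to -0.24 and -1.30. The part of this scaling in the marker medians was not tested. Tead1 was lower in the same hearts, and the part of cardiomyocyte RNA in its ratio was not tested. The median was -0.40 for 9 endothelial markers (2 under 1/1.5 in both lines), but -0.02 after normexp. It was -0.08 for 8 smooth muscle and pericyte markers (0.16 after normexp), -0.06 for 7 macrophage markers (-0.41 with no background subtracted), 0.29 for 4 epicardial and mesothelial markers (1 over 1.5-fold, and -0.14 after normexp) and -0.49 for 5 adipocyte markers (1 under 1/1.5, and -0.20 after normexp).

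**Figure D5:**
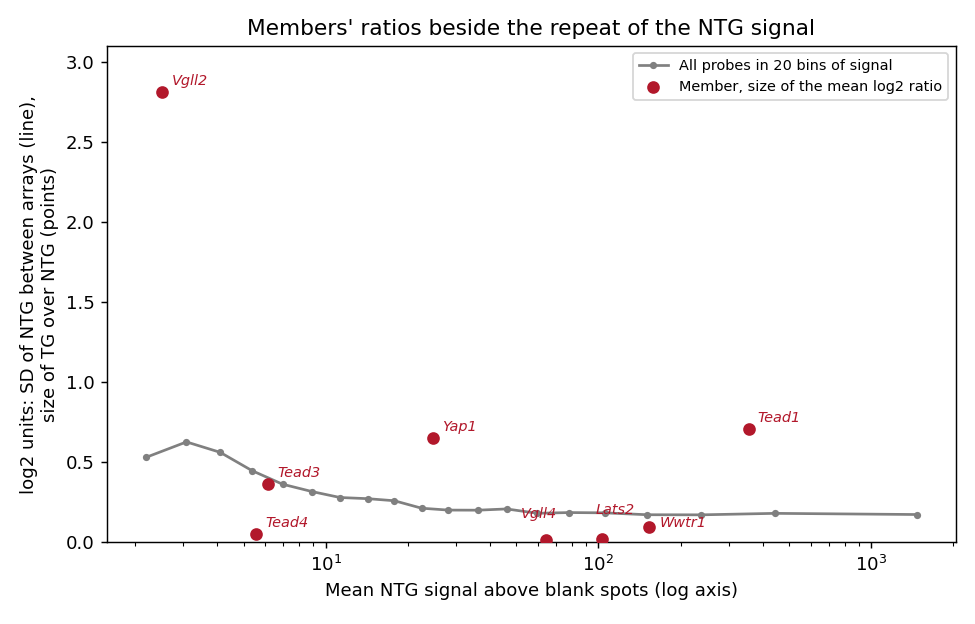
Size of the mean log2 ratio of each measured member (red points) against its mean NTG signal (log axis), with the SD of the log2 NTG signal between both arrays in 20 bins of signal (grey line). Vgll2 at 2.81, Tead1 at 0.71 and Yap1 at 0.65 lie well above the line, Tead3 at 0.36 lies just below it, and Wwtr1, Tead4, Vgll4 and Lats2 lie below it. The line shows repeated readings of 1 RNA in the NTG channel and leaves out the spread between mice. It is not the error of a ratio of TG over NTG.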

How the data were processed

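Heart RNA of TG lines L9 and L19 (Cy3) was read against NTG RNA (Cy5) on 2 arrays of Toray's 3D-Gene mouse design. The deposited scanner files give the intensity of each spot, neither background-corrected nor normalized, and a deposited value table holds the authors' log2 ratios, normalized to a median ratio of 1 for each array. The sources used here do not give the version of the scanner software. The mean of 2736 blank spots, after trimming 5% at each end, was subtracted from each channel, a probe counted as detected above that mean plus 2 SD of the blank spots, and Cy3 over Cy5 was scaled to a median of 1. This gave ratios for 18441 probes in L9 and 18824 in L19, of which 18440 and 18823 lay within 0.001 of the deposited log2 ratios, which settles their scale and direction. Before scaling, the median of Cy3 over Cy5 was 2.02 in L9 and 1.83 in L19. The files' local background was left out, since it rose with the spot signal (Pearson's r over spots between 0.945 and 0.975). The authors' method is thus the main setting.

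The platform table named 16631 of 23473 probes, and 3947 symbols were updated through unique synonyms of RefSeq on GRCm38.p6. The brightest probe stood for a gene. The probe with the platform symbol Taz was left out, since that symbol belonged to tafazzin. All 17485 genes and unnamed probes with both ratios were fitted with limma 3.58.1 (lmFit, eBayes) in R 4.3.3 and tested against 0, with Benjamini-Hochberg adjustment, L9 and L19 being 2 replicates. Tested on simulated data for this comparison over 17485 genes, it called 0% of genes changed 1.5-fold, 0.4% at 2-fold, 81.6% at 4-fold and 90.8% at 8-fold. The simulated ratios were independent normal values, without error shared by both arrays through the NTG RNA. In the data the smallest adjusted p of limma was 0.086, and Nppa, with log2 ratios of 3.32 in L9 and 2.31 in L19, was not called. The simulated shares thus do not carry over to the data, and 0 calls do not mean that no gene changed 4-fold. Members, lists and markers were chosen with earlier results of these data known, so no test is given for the members. For the same reason the calls counted within the lists are a description, and no list was tested as a set. Genes named are the members, of each list those past 1.5-fold in both lines and its best known genes, for each member the named gene nearest to it in the pair of ratios, and Hk2. Postn, Col1a1, Col3a1, Thy1, Myl2, Limd1, Stk38 and the skeletal muscle markers were named after their values were seen. Alternatives were normexp with an offset of 50, no background, loess, the deposited table, the upper 50% of signal, the mean over probes, a cutoff of 2-fold, each line alone and, in limma, a trend with robust estimation. Normexp added its offset to both channels before they were scaled. After normexp, and with no background subtracted, the ratios were centred on their own median over all probes with a ratio. A planned comparison of the members' proteins was not run. Python 3.11.15, numpy 2.4.6 and pandas 2.3.3 were used.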

Additional observations from a re-analysis of the deposited data

Results flagged for a closer look

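Tead4 and Lats2 were singled out because the lines moved to opposite sides of NTG, each by more than 0.1 on the log2 scale. For Tead4 the log2 ratio of L9 minus that of L19 was -1.13, from spots near background, and for Lats2, from bright spots, it was -0.25, within the SD of 0.42 that this difference had over all genes. The difference between the lines was not tested, since each is 1 RNA.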

How the results depend on the processing

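Under the alternatives, 10 of 60 values of the members' mean log2 ratios lay on the other side of 0, all in Wwtr1, Tead3, Tead4, Vgll4 and Lats2, and 14 moved by over 1 SD. Many of the 60 could not change sides. The deposited table and the upper 50% of signal repeat the main values, the mean over probes alters only Tead1, and a line left out cannot turn a gene with 1 sign in both lines. Normexp, no background and loess could, and under these Yap1, Vgll2 and the brighter Tead1 probe kept the sign of the mean. Of the members, 1 was over 1.5-fold in both lines, against 0 after normexp with an offset of 50 and 0 in the upper 50% of signal, which leaves out Vgll2. Members under 1/1.5 numbered 1, against 0 after normexp, 0 at a cutoff of 2-fold and 0 with the probes of a gene averaged. With either line left out, 1 to 3 members were over and 1 was under, the 3 in L19 alone being Yap1, Tead4 and Vgll2 among the genes with a ratio in both lines, to which Tead2, with a ratio in L19 only, adds another. Over all genes, 910 were over and 530 under, against 964 and 44 after normexp, 82 and 1364 with no background subtracted, 360 and 268 in the upper 50% of signal, 219 and 99 at 2-fold, and 1709 to 1857 and 1307 to 1328 with 1 line left out.

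Upstream genes over 1.5-fold numbered 2, against 2 after normexp, of which 0 were the same genes, 0 with no background subtracted, 1 in the upper 50% of signal, 0 at 2-fold and 3 to 4 with a line left out, and those under numbered 0, against 1 with no background subtracted and 0 to 1 with a line left out. Targets over numbered 4, against 3 after normexp and 3 in the upper 50% of signal, all among the 4, 4 after loess, of which 3 were the same genes, 1 with no background subtracted, 2 at 2-fold and 5 to 6 with a line left out, and those under numbered 0, against 1 with no background subtracted and 1 to 3 with a line left out. M-CAT genes over numbered 1, against 2 after normexp, 0 with no background subtracted and 1 to 2 with a line left out, and those under numbered 1, against 0 after normexp, 4 with no background subtracted, 0 after loess, 0 at 2-fold and 1 to 2 with a line left out. For limma, 0 calls in either direction became 5330 higher and 2293 lower after normexp, 5209 and 6446 with no background subtracted, 1227 and 1267 in the upper 50% of signal and 1794 and 1617 in the second fit. The cause was not tested, other than that the upper 50% of signal holds fewer genes and a higher cutoff passes fewer. TG and NTG were read on the same array, so every ratio, and limma's test of them, is already paired by array. The ratios of dim spots, such as those of Vgll2, Tead3 and Tead4, are limited by the signal over background.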
